A study of Mus musculus with 153 samples.

Results

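The mitochondrial ribosome is built from proteins that the nuclear genome encodes, and the 77 genes described here are the mouse genes named for its large subunit (Mrpl) and its small subunit (Mrps). They were chosen by symbol alone: every symbol in the count tables made of Mrpl or Mrps, a number and at most 1 letter. The rule took 77 of 25103 listed genes, and 76 of them were listed in the Camk2a table at 15 min, where Mrpl57 was not listed. By role, 50 encode large-subunit proteins and 26 small-subunit proteins, since Mrps18a and Mrps30 keep a small-subunit name but sit in the large subunit. The last gene, Mrps36, is known today as an adaptor of the 2-oxoglutarate dehydrogenase complex and not as a stable ribosome subunit. Of the 76 subunit genes, 46 have a bacterial counterpart and 30 are specific to mitochondria.

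Mitochondrial ribosomes translate the few messages of the mitochondrial genome, all of them for subunits of the oxidative phosphorylation complexes. Every protein of these ribosomes is made in the cytosol and imported, so the messages measured here are read by cytosolic ribosomes. In neurons, oxidative phosphorylation supplies most of the ATP used for firing and for synaptic transmission, and fast-spiking parvalbumin interneurons are known for a high mitochondrial content.

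The study sequenced polyA RNA of mouse dorsal hippocampus from 3 genotypes, Camk2a.Cre/TRAPfl, Pvalb.Cre/TRAPfl and Sst.Cre/TRAPfl. In each, Cre under a neuronal driver (excitatory neurons for Camk2a, parvalbumin and somatostatin interneurons for the others) switches on a tagged ribosome, so that ribosome-bound RNA can be purified from the marked cells. All animals carried such a Cre and the TRAPfl allele, home cage controls included, and the labels give neither age nor sex. For each line the purified RNA and the total lysate were sequenced from home cage mice, from mice placed in a new context without shock (box) and from mice shocked there, in a 15 min and a 60 min set. The labels hold 153 samples in 36 groups of 3 to 6, called biological replicates by the submitters. The home cage label gives no time, and a home cage group was compared only with the groups of its own set.

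The 151 count columns used held 9043042 to 397228206 counts each. Markers of the labelled neuron class were checked with an own-class score. Its first part was the mean log2 level of pyramidal markers for Camk2a, and of the line's own and general GABA markers for Pvalb and Sst. The mean of glial, endothelial and opposite-class neuron markers (GABA for Camk2a, pyramidal for the others) was subtracted. The score does not separate parvalbumin from somatostatin neurons. In the Camk2a and Pvalb tables every purified library scored above every lysate. In the Sst tables, 3 of 12 purified libraries at 15 min (box 2, shock 4 and shock 5) and 5 of 13 at 60 min (home cage 3 and all 4 shock libraries) did not score above the highest lysate. The 4 Sst shock libraries at 60 min scored -3.11 to -2.42, and the lysates of that table -3.01 to -1.81. Results that rest on these libraries are given with that fact, and without the libraries where a fit could be made.

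Levels per length ranged widely within the group. The average home cage level in purified RNA, in CPM, counts scaled to a fixed library total, per kilobase of exon (CPM per kb) over the 6 line and time sets, was highest for Mrps18c, a small-subunit protein of the bacterial S18 type, at 231. It was 205 for Mrps12, a protein of the decoding centre, 199 for Mrpl20 and 176 for Mrpl41. The lowest levels were 4.73 CPM per kb for Mrps35, 4.25 for Mrpl23 and 1.89 for Mrps5. In the lysates Mrps18c, Mrps12 and Mrpl20 were again the 3 highest, at 140, 95 and 91.2 CPM per kb. Neighbours in the order did not separate: Mrps18c ran from 107 to 492 CPM per kb over the 6 sets, Mrps12 from 147 to 320 and Mrpl20 from 130 to 273. The values of Mrpl23, Mrpl48 and Mrps36 are uncertain because each has an annotated pseudogene that could share reads. The library kit does not mark strand, and exons of 32 members overlap another gene, by over 50% of their length in Mrpl53, Mrps25 and Mrps34, so those counts can hold reads of the neighbour.

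**Figure D1:**
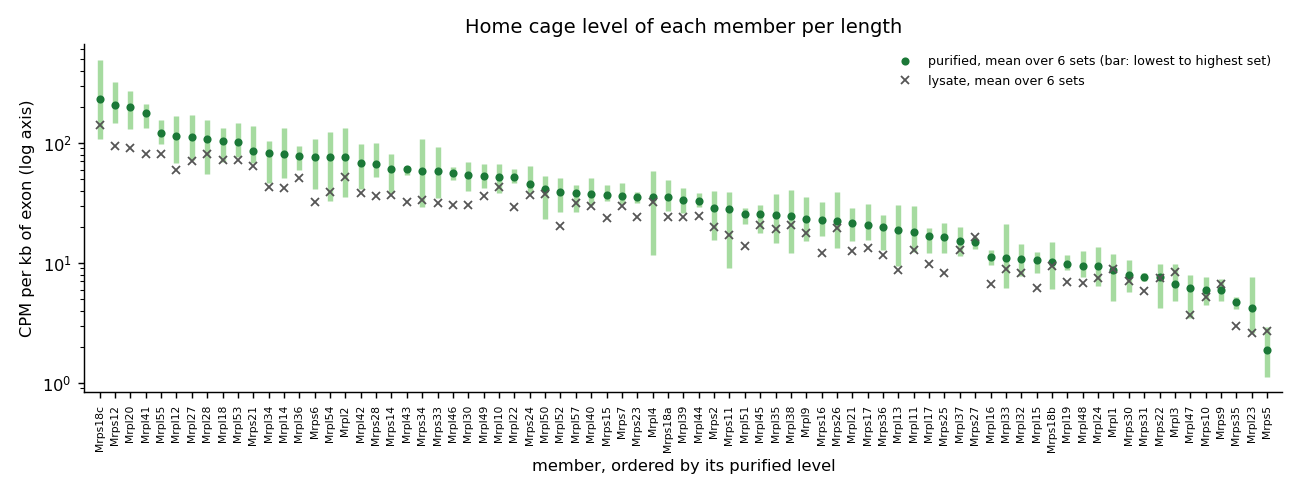
Home cage level of each mitochondrial ribosomal protein gene in CPM per kb of exon (log axis), ordered by purified level; points are means over the 6 line and time sets in purified RNA, bars run from the lowest to the highest set, and crosses are the lysate means. Mrps18c is highest at 231 and Mrps5 lowest at 1.89 in purified RNA, and Mrps5 is among the genes whose lysate cross lies above the purified point.

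Promoter sequences from RefSeq (build GRCm38.p6) were found for 68 of the 77 genes, each from 250 bases before to 50 after the annotated start. The core letters of 4 factor motifs known from nuclear genes for mitochondrial proteins were searched on both strands: NRF1 (GCATGCG), ETS factors such as GABP (CCGGAAG), YY1 (ATGGCGG) and the E-box (CACGTG). The ETS letters occurred in 24 of 68 promoters (35.3%, against 9.12% of 27025 promoters in the table). The YY1 letters occurred in 13 (19.1% against 4.19%), the NRF1 letters in 8 (11.8% against 3.64%) and the E-box in 5 (7.35% against 7.24%). At least 1 of the 4 motifs was present in 38 promoters (55.9% against 20.8%), and NRF1 and ETS letters together in 4 (5.88% against 0.611%). The promoters of these genes also had a higher GC content than the others (median 58.3% against 52.7%), and the counts were not adjusted for it. Such matches describe letters and not bound sites.

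The promoters of 5 genes are printed because the results turn on these genes, from 200 bases before to 20 after the start, 5′ to 3′ on the gene's strand, with matched motifs in capitals. Mrps12 (chr7:28741802-28742021, minus strand) has an ETS match, Mrps5 (chr2:127587226-127587445, plus) a YY1 match, Mrps18c (chr5:100798559-100798778, plus) an E-box and an ETS match, Mrpl33 (chr5:31613751-31613970, plus) adjoining NRF1 and ETS matches, and Mrpl12 (chr11:120484437-120484656, plus) none of the 4.
Mrps12: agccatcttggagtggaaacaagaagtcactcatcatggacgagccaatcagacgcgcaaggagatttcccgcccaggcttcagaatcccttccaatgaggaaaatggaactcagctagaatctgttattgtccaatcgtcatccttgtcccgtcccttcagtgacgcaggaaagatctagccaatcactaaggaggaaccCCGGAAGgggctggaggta
Mrps5: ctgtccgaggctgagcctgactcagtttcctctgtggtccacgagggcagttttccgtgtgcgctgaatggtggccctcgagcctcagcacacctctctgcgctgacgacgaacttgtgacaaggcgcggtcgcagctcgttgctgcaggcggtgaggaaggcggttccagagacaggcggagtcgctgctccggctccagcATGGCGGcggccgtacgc
Mrps18c: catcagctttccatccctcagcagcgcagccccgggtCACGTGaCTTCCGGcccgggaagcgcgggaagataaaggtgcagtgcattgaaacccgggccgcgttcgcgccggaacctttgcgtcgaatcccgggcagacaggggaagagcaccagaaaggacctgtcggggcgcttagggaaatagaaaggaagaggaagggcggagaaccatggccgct
Mrpl33: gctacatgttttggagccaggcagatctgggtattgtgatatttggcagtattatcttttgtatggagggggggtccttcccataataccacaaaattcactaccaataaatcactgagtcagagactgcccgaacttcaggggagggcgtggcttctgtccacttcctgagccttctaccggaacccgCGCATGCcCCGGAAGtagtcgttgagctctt
Mrpl12: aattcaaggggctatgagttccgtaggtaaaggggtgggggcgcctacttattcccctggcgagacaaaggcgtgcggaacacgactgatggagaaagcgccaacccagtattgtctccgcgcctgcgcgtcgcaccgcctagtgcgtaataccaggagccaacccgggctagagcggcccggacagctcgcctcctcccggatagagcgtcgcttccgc

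The comparison of purified RNA with lysate shows which messages ribosomes of the marked neurons carry above their level in the whole tissue. Mitochondrial ribosomal protein messages rose in the purified fraction of every line. In the Camk2a line 67 of 76 were higher and 0 lower at 15 min (edgeR quasi-likelihood test, Benjamini-Hochberg adjusted p under 0.05), where 22.9% of all 15684 genes tested were called higher. The median log2 fold change was 0.97, against -0.14 over all genes. At 60 min 68 of 77 were higher and 0 lower (22.2% of all genes higher), with a median of 0.80 against -0.26.

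In the Pvalb line 66 were higher and 1 lower at 15 min (21.3% and 24.3% of all genes), with a median of 0.69 against -0.15. At 60 min 70 were higher and 0 lower (28% of all genes higher), with a median of 0.82 against -0.13. In the Sst line 72 were higher and 0 lower at 15 min (23.6% of all genes higher), with a median of 0.95 against -0.05. Of the 12 purified libraries in that set 3 had a low own-class score, and without them 73 members were higher and 0 lower. The Sst set at 60 min differed from the others in having 13 members lower beside 47 higher (28.2% and 31.2% of all genes), with a median of 0.54 against 0.11. Fewer cells of a type and less RNA per cell cannot be told apart in such bulk samples.

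**Figure D2:**
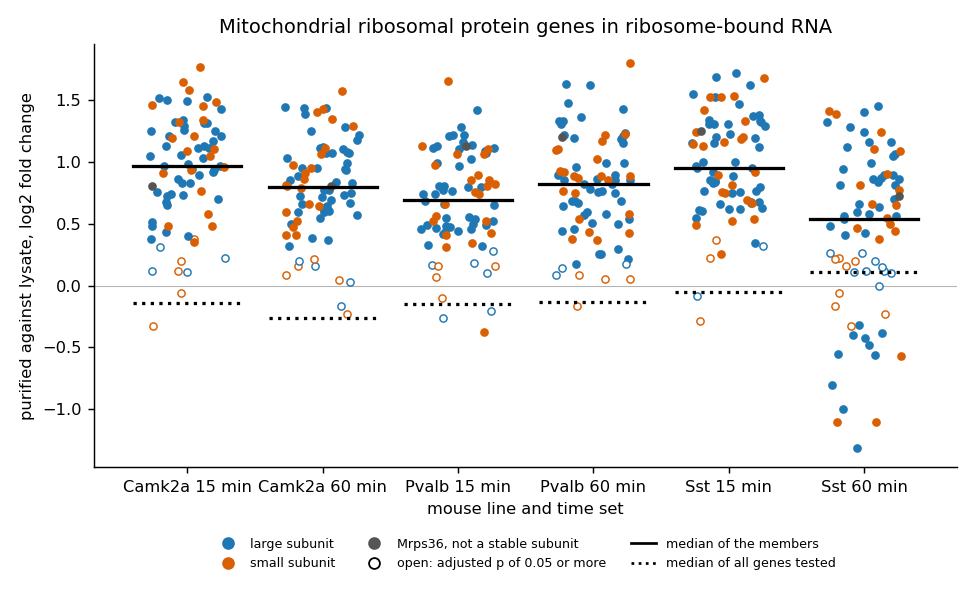
Log2 fold change of each gene between purified RNA and lysate in the 6 line and time sets, 1 point per gene; colours give the subunit, open points have an adjusted p of 0.05 or more, solid bars are the medians of the group and dotted bars those of all genes tested. The medians of the group lie at 0.54 to 0.97 and those of all genes at -0.26 to 0.11, and only the Sst set at 60 min has a tail of genes below -0.5.

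Summed over the group, the level showed the same split. In the Camk2a home cage mice at 15 min the 3 purified libraries held 7165 to 7553 CPM of these messages and the 3 lysates 4112 to 4626. In the Pvalb home cage mice at 60 min the 6 purified libraries ran from 5888 to 6823 CPM with a median of 6172, and the 6 lysates from 4336 to 4865 with a median of 4596. The groups did not overlap in either case. In the Sst home cage mice at 60 min the 5 purified libraries ran from 5339 to 6715 CPM and the 5 lysates from 3235 to 4949, again without overlap.

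**Figure D3:**
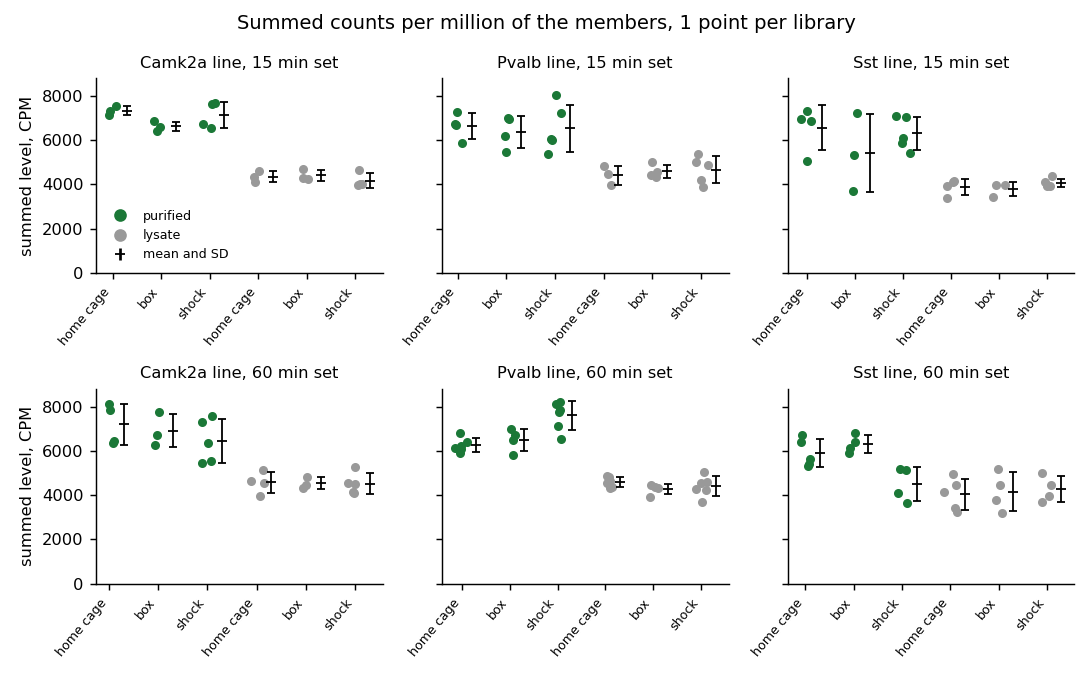
Summed level of the mitochondrial ribosomal protein genes in CPM, 1 point per library, by line, time set, fraction and condition, with the mean and SD beside each group. Purified libraries lie mostly above lysates; the 4 Sst shock libraries at 60 min, at 3645 to 5175 CPM, lie within the range of the lysates of that table, and the Pvalb shock libraries at 60 min are the highest of their table on average.

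Over the 6 sets, 40 of the 77 genes rose in all 6, where 5.31% of 15057 genes tested in every set did. A further 21 rose in 5 sets, 4 in 4, 9 in 3 and 2 in 1, and Mrps5 rose in none. Every purified library lay above every lysate for 25, 7, 4, 24, 4 and 0 members in the Camk2a, Pvalb and Sst sets, each at 15 and then 60 min (2.76%, 1.54%, 1.87%, 3.98%, 1.31% and 0.853% of all genes). The small-subunit protein Mrps12 had the highest mean log2 fold change, 1.40, with a range of 1.11 to 1.77. Its gene lies at chr7:28739641-28741820 (minus strand; positions are those of the Ensembl annotation of GRCm38). Its level in the Camk2a line at 15 min was 137 to 297 CPM in the 10 purified libraries (median 198) and 57.7 to 103 in the 10 lysates (median 69.6). No purified library overlapped a lysate, and the fit gave 1.77 ± 0.12 (SE, adjusted p = 5.1e-10). In the Sst line at 60 min Mrps12 ran from 75.8 to 285 CPM in 13 purified libraries and from 35.9 to 124 in 13 lysates. Those ranges overlap, and the fold change there was 1.41 ± 0.21 (adjusted p = 8.58e-06).

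The large-subunit protein Mrpl12 (chr11:120484613-120489065), a stalk protein that binds the elongation factors and is also reported to bind mitochondrial RNA polymerase, rose by 1.14 to 1.32 in all 6 sets, with a mean of 1.21. Mrpl41 averaged 1.27, Mrps6 1.26, Mrpl14 1.25 and Mrpl54 1.24, and each of these rose in all 6 sets. Mrpl20 averaged 1.25 and rose in 5 sets (1.22 to 1.72), with 0.27 ± 0.12 in the Sst set at 60 min (adjusted p = 0.0635). Mrps36, the gene that is no stable subunit, rose in all 6 sets as well, by 0.73 to 1.25.

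The medians lay close together by subunit and by ancestry. In the Camk2a set at 15 min the median log2 fold change was 0.97 over 49 large-subunit genes and 1.01 over 26 small-subunit genes, and in the Pvalb set at 60 min 0.80 and 0.86. The medians of bacterial-type and mitochondria-specific genes were 1.0 and 0.96 in the former set and 0.85 and 0.80 in the latter. The largest gap was in the Pvalb set at 15 min, 0.76 over 46 bacterial-type genes and 0.54 over 30 mitochondria-specific genes. These are medians of genes in the same libraries, and the differences were not tested.

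A few genes stood apart. Mrps5 (chr2:127587222-127606829), a protein of the mRNA entry side of the small subunit, rose in 0 of 6 sets, and its log2 fold changes ran from -0.37 to 0.21. In the Pvalb line at 15 min it held 6.25 to 16.6 CPM in 13 purified libraries (median 13.2) and 15.8 to 24.6 in 12 lysates (median 19.2), almost without overlap, and it fell by 0.37 ± 0.14 on the log2 scale (adjusted p = 0.0337). That call was lost with GC and length offsets (-0.01), in home cage libraries alone (-0.32), and without box replicates 3 or 4, home cage replicate 4 or shock replicates 1 or 3 (-0.38 to -0.33). The CPM values put it further down than the fitted change. The fit scales libraries by TMM factors and averages over the conditions, which the CPM medians do not, and the reason for the gap was not tested. With offsets for GC content and exon length its value turned positive in 4 sets, among them 0.26 in the Camk2a set at 15 min and 0.55 at 60 min. Mrpl3 rose in 1 set and fell in 1 (mean -0.13), and Mrps27, which binds RNA through a pentatricopeptide repeat domain, rose in 1 (mean 0.21). In the Mrps18 family, Mrps18a rose in 6 sets (0.49 to 1.06), Mrps18c in 5 (0.85 to 1.68) and Mrps18b, the mitochondria-specific small-subunit member, in 3, with values of 0.07 to 0.78 over the 6 sets.

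In the Sst set at 60 min 12 of the 13 members that fell were among the 39 of lower exon GC content. The Spearman correlation of the log2 fold change with exon GC content was 0.71 over 77 genes and 0.76 over all genes, given as a description because genes of the same libraries are not independent. Of the 38 members with the higher GC content 31 rose and 1 fell, and of the other 39 it was 16 and 12. Mrpl1 fell by 1.31 ± 0.25, Mrps22 by 1.10, Mrps18c by 1.10 ± 0.25 and Mrpl50 by 1.0. Mrps18c held 58.9 to 172 CPM in the 13 purified libraries (median 91.3) and 67.7 to 363 in the 13 lysates (median 226). The lysates of this table themselves differed in how counts depended on GC content, with slopes of -0.677 to 1.147 (log2 level per 10 percentage points of GC, relative to the mean of the lysates). With offsets for GC content and length 54 members were higher and 3 lower (share of all genes not computed), and Mrps18c stood at -0.19 ± 0.17 (adjusted p = 0.402). Without the 5 purified libraries of low own-class score 52 were higher and 4 lower, with a median of 0.76. In the other 5 sets the correlation with GC content lay between -0.16 and 0.34.

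Other genes of mitochondrial gene expression were read against these counts. The 5 mitochondrial ribosomal proteins with other names included Gadd45gip1, Aurkaip1 and Dap3, which rose in all 6 sets, Dap3 by 0.57 to 0.64. Chchd1 rose in 5 and fell in the Sst set at 60 min, and Ptcd3, a pentatricopeptide repeat protein of the small subunit, rose in 0 and fell in 3. The 17 mitochondrial translation factors had medians of 0.09 to 0.57, with the elongation factor Tsfm higher in 6 sets (0.59 to 1.28) and its partner Tufm in 5. The 26 assembly factors had medians of -0.11 to 0.32, and the 20 tRNA synthetase and amidotransferase genes of -0.21 to 0.20, although Lars2, the leucyl-tRNA synthetase, rose in all 6 sets by 1.76 to 2.99. By contrast, 80 listed nuclear genes of oxidative phosphorylation had medians of 0.69 to 1.58, and 80 cytosolic ribosomal protein genes of 0.53 to 1.47. In each of the 6 sets the median of the mitochondrial ribosomal protein genes lay above that of the translation factors and below that of the oxidative phosphorylation genes, and these differences between lists were not tested.

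Shock against home cage in purified Pvalb RNA at 60 min changed many of these genes. Of 77 genes 34 rose and 6 fell (19.7% and 15.3% of 16135 genes), with a median log2 fold change of 0.28 against -0.06 over all genes. The summed level was 6260 ± 325 CPM (SD, n = 6) in home cage, 6504 ± 508 (n = 4) in box and 7611 ± 654 (n = 6) in shock libraries. In the lysates of the same table it was 4599, 4274 and 4405 CPM, respectively. The shock libraries also differed from the home cage libraries in how counts depended on GC content, and the values with offsets for GC content and length are given after those from the counts as deposited.

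Mrpl12 held 118 to 155 CPM in the 6 home cage libraries (median 131.6), 151 to 255 in the 4 box libraries and 194.5 to 380.5 in the 6 shock libraries (median 327.5). Every shock library lay above every home cage library, and the change was 1.14 ± 0.17 (adjusted p = 5.94e-04). Mrpl4 (chr9:21002738-21008839), which lines the peptide exit tunnel, held 43.3 to 69.0 CPM in home cage (median 57.3), 70.1 to 135 in box and 88.2 to 213 in shock (median 179). Its change was 1.5 ± 0.22 (adjusted p = 5.94e-04), again without overlap. Mrps11 (chr7:78783119-78792989), a small-subunit platform protein, ran from 40.8 to 69.7 CPM in home cage, 63.3 to 112 in box and 84.5 to 179 in shock, a change of 1.35 ± 0.19. Mrpl14 rose by 1.32 ± 0.21 and Mrpl54 by 1.28 ± 0.20, and Mrps12 by 0.95 ± 0.17. In all, 22 members had every shock library above every home cage library (7.9% of all genes), and 2 every shock library below (2.67%).

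Among the 6 that fell, Mrpl50 (chr4:49512596-49521093) held 97.6 to 135 CPM in home cage (median 109), 69.4 to 99.6 in box and 47.5 to 86.4 in shock (median 59.2), a change of -0.81 ± 0.16 (adjusted p = 0.0014). Mrpl1 held 42.4 to 60.9 CPM in home cage and 16.0 to 43.9 in shock, where only shock replicate 2 reached the home cage range, a change of -1.03 ± 0.22. Mrpl35 changed by -0.57 and Mrps18c by -0.72. The Mrps18 relatives thus moved in different directions, Mrps18a by 0.83 ± 0.15 and Mrps18b by 1.02 ± 0.22 upward. Mrps36 rose by 0.66.

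**Figure D4:**
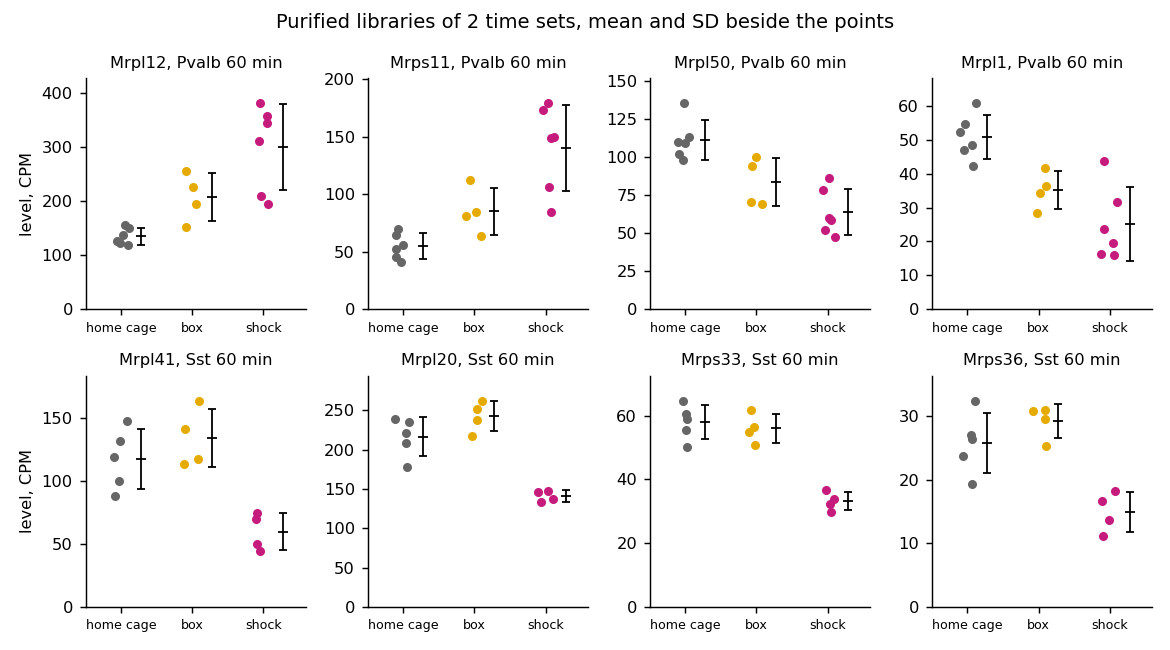
Level in CPM of 4 genes in purified Pvalb libraries (upper row) and 4 in purified Sst libraries (lower row) of the 60 min sets, 1 point per library by condition, with mean and SD. In the Pvalb line the box libraries of Mrpl12, Mrps11, Mrpl50 and Mrpl1 lie between home cage and shock on average; in the Sst line the 4 shock libraries of Mrpl41, Mrpl20, Mrps33 and Mrps36 lie below all others.

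Exon GC content ordered the Pvalb change. The Spearman correlation of the log2 fold change with GC content was 0.73 over the 77 members and 0.66 over all genes. Of the 38 members with the higher GC content 26 rose and 0 fell (median 0.57), and of the other 39 it was 8 and 6 (median -0.06). The slope of log2 level on GC content was -0.509 to -0.292 in the home cage libraries and -0.107 to 0.760 in the shock libraries, without overlap. With offsets for GC content and length fitted in each library, 29 members were called higher and 0 lower, with a median of 0.35, and 20 of the 34 genes called without the offsets were among them. The share of all genes called with the offsets was not computed, so these 29 calls cannot be set against it. Mrpl12 then stood at 0.59 ± 0.13 (adjusted p = 0.00622), Mrpl4 at 0.91 ± 0.14, Mrps11 at 0.88 ± 0.16 and Mrps36 at 1.01 ± 0.20, and Mrpl14 (0.50 ± 0.12, adjusted p = 0.0146) and Mrps18b (0.78 ± 0.17, adjusted p = 0.00655) also passed. Among the others that had risen, Mrpl54 (0.45 ± 0.14, adjusted p = 0.0533), Mrps12 (0.34 ± 0.13, adjusted p = 0.0922) and Mrps18a (0.33 ± 0.13, adjusted p = 0.137) no longer passed. Among those that had fallen, Mrpl35 (-0.02 ± 0.13), Mrpl1 (-0.45 ± 0.17, adjusted p = 0.102), Mrpl50 (-0.17 ± 0.15) and Mrps18c (-0.23 ± 0.19) no longer passed. The offsets remove the part of a change that follows GC content over all genes, whatever its source, so an effect of shock of that form is removed too. What set the slopes was not tested.

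**Figure D5:**
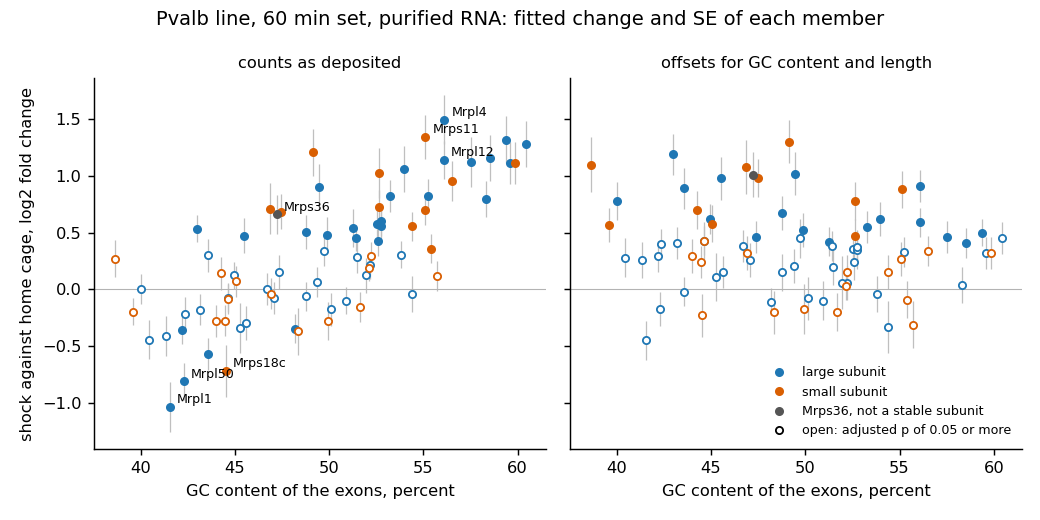
Fitted log2 fold change (bars: SE) of each gene between shock and home cage in purified Pvalb RNA at 60 min against its exon GC content, from the counts as deposited (left) and with offsets for GC content and length (right); colours give the subunit and open points have an adjusted p of 0.05 or more. The points climb with GC content on the left, from -1.03 for Mrpl1 to 1.5 for Mrpl4. On the right the offsets take out the dependence on GC content by design. There 29 genes are called, all of them higher, of which 20 are also called on the left.

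The partners of the mitochondrial ribosome moved in both directions in the same contrast. Gadd45gip1 rose by 1.34 ± 0.20 and Aurkaip1 by 0.97 ± 0.17, the elongation factors Tufm by 1.17 ± 0.21 and Tsfm by 1.33 ± 0.24, and the polymerase Polrmt by 1.49 ± 0.28. The initiation factor Mtif2 fell (-0.69 ± 0.17), as did the RNA-stabilising protein Slirp (-0.69 ± 0.26) and the subunit Ptcd3 (-0.78 ± 0.26). Of the 26 assembly factors 11 rose and 2 fell, of the 20 synthetase genes 5 and 3, of 79 oxidative phosphorylation genes 37 and 5, and of 79 cytosolic ribosomal protein genes 43 and 4. With GC and length offsets Gadd45gip1 (0.86 ± 0.13), Tufm (0.61 ± 0.13) and Tsfm (1.32 ± 0.21) were still called. Aurkaip1 (0.41 ± 0.14, adjusted p = 0.0623), Polrmt (0.65 ± 0.24, adjusted p = 0.0939), Mtif2 (-0.20 ± 0.17), Slirp (-0.15 ± 0.22) and Ptcd3 (-0.17 ± 0.22) were not. The list counts with these offsets were 5 higher and 0 lower for the assembly factors, 2 and 0 for the synthetase genes, 28 and 0 for the oxidative phosphorylation genes and 30 and 0 for the cytosolic ribosomal protein genes. No share of all genes was computed for them. Own-class scores of the shock libraries (1.27 to 2.36) overlapped those of the home cage libraries (1.66 to 2.55), and with the score as a covariate 32 members rose and 6 fell.

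The new context alone gave a summed level between the others, and no member passed the test. In box against home cage 0 of 77 members were called in the Pvalb 60 min set (0% of all genes). An unadjusted p under 0.05 was found for 19 members and for 1829 of 16135 genes. The median there was 0.01, with 41 of 77 higher, and DESeq2 called 0. In shock against box 0 were called by edgeR (0% of all genes), with 32 at an unadjusted p under 0.05 beside 3306 of all 16135 genes. The median was 0.27 with 61 of 77 higher, and DESeq2 called 7. Without shock replicate 2, edgeR called 26 in that contrast. The shock and box comparisons with home cage share the 6 home cage libraries. Whether the change in purified RNA differed from that in the lysate was tested by an interaction, which called 26 members higher and 3 lower (13% and 7.44% of all genes). Mrpl4 (1.43 ± 0.25), Mrpl12 (1.13 ± 0.21) and Mrpl50 (-0.88 ± 0.21) were among them. With GC and length offsets 8 were called in this interaction, and with a replicate block that pairs the purified and lysate libraries of the same title number 0 were called. In the other interactions edgeR called 0 members. At an unadjusted p under 0.05 there were 1 and 13 members in the Camk2a sets at 15 and 60 min, and 5 in the Pvalb and 9 in the Sst set at 15 min. Over all genes 742 of 15684, 2376 of 16519, 1333 of 17179 and 3058 of 17075 had such a p in the same order. The shares of all genes called were 0.00638%, 0%, 0% and 1.58%. The Sst set at 15 min includes shock libraries 4 and 5 of low own-class score. DESeq2 called 1 member in the Sst set at 15 min and 0 in the other interactions listed here. In the Sst interaction at 60 min, described below, it called 6.

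In purified Sst RNA at 60 min the members moved the other way. Against home cage 0 rose and 11 fell (2.34% and 2.15% of 16301 genes), with a median of -0.46 against 0.04. Against box 0 rose and 31 fell (3.62% and 4.56%), the median was -0.58 against 0.07, and all 77 point estimates were below 0. The 2 contrasts share the 4 shock libraries, all of which had own-class scores as low as lysates, so neither contrast could be fitted without them. Mrpl41 (chr2:24974117-24975098), a mitochondria-specific large-subunit protein, held 88.3, 99.9, 119, 132 and 147 CPM in the 5 home cage libraries, 114, 118, 141 and 164 in the 4 box libraries and 44.0, 49.97, 69.8 and 74.3 in the 4 shock libraries. The shock libraries lay below all others, and the changes were -1.07 ± 0.21 against home cage and -1.31 ± 0.22 against box (adjusted p = 0.0175 and 0.00971).

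Mrps33 held 50.1 to 64.6 CPM in home cage, 50.7 to 61.8 in box and 29.7 to 36.7 in shock, a change of -0.89 ± 0.15 against home cage (adjusted p = 0.0125). Mrpl20 held 178 to 240, 218 to 262 and 133 to 148 CPM, changes of -0.71 ± 0.14 and -0.92 ± 0.14. Mrps36 changed by -0.89 ± 0.20 and -1.11 ± 0.21. Leaving out 1 library at a time lowered the count against home cage to 7 without home cage replicate 1, to 3 without home cage replicates 2, 4 or 5 or shock replicate 2, and to 1 without shock replicate 4. The count against box became 10 without box replicates 1 or 3, 19 without box replicate 2, 5 without box replicate 4, 8 without shock replicate 2 and 7 without shock replicate 4. In all, 17 members had every shock library below every home cage library (3.75% of all genes), and 37 every shock library below every box library (6.39%). The summed level was 5906 ± 619 CPM (SD, n = 5) in home cage, 6321 ± 391 (n = 4) in box and 4508 ± 763 (n = 4) in shock libraries, and 4286 ± 587 (n = 4) in the shock lysates.

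Some cell type marker lists moved with this result and others did not separate. The 8 somatostatin markers summed to 473 to 8564 CPM in the home cage libraries and 174 to 502 in the shock libraries, the 10 oligodendrocyte markers to 2405 to 5627 and 7271 to 11170, and the 10 astrocyte markers to 1680 to 4035 and 5329 to 5547. General GABA markers summed to 753 to 2969 and 548 to 638. Ranges overlapped for pyramidal (3417 to 7462 and 4540 to 6606) and parvalbumin markers (182 to 853 and 188 to 293). The same held for microglial (164 to 3610 and 545 to 654) and endothelial markers (150 to 505 and 195 to 215). No marker of these lists was at 0 in all libraries of a group. With the own-class score as a covariate 0 members were called against home cage and 0 against box, with medians of -0.29 and -0.42. DESeq2 called 30 and 45, with no share of all genes computed. The interaction with the lysate called 0 (0.0415% of all genes in either direction), with all 77 estimates below 0 and 6 called by DESeq2. An unadjusted p under 0.05 was found for 24 members and for 1753 of 16878 genes. Other lists fell with them: 15 of 79 oxidative phosphorylation genes against home cage and 40 against box, and 8 and 11 of 79 cytosolic ribosomal protein genes.

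In the remaining sets 1 member passed the test. Mrpl2, a core protein of the peptidyl transferase region, fell in purified Camk2a RNA at 60 min in shock against home cage (0.641% of 14673 genes fell). It held 147, 148, 157 and 167 CPM in the 4 home cage libraries and 77.7, 78.2, 89.6, 108 and 127 in the 5 shock libraries, without overlap, a change of -0.64 ± 0.16 (adjusted p = 0.0496). The call was lost under 5 of the alternatives listed in the closing section, DESeq2 called 13 members, and edgeR called 6 without shock replicate 2, 9 without shock replicate 3 and 0 without any other single library. In this contrast the correlation of the change with GC content was -0.69 over the members, opposite in sign to that of the Pvalb line.

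Elsewhere edgeR called 0 members in purified RNA. In the Camk2a set at 15 min 14 members had an unadjusted p under 0.05 in shock against home cage, 0 in box against home cage and 10 in shock against box. Of all 14542 genes tested 1288, 397 and 1336 had such a p, and 0% were called in each. In the Camk2a set at 60 min the counts were 0 in box against home cage and 13 in shock against box, beside 294 and 2214 of 14673 genes (0% called). In the Pvalb set at 15 min they were 7, 0 and 8 in the order of the first set, beside 2413, 260 and 2411 of 15484 genes (0% called). DESeq2 called 1, 0 and 1 members there. In the Sst set at 15 min they were 10, 4 and 0, beside 3496, 681 and 1384 of 16046 genes (1.21%, 0% and 0% called). DESeq2 called 4 members in the shock and home cage contrast. Without home cage replicate 4, edgeR called 1 in that contrast. The Sst box and shock groups at 15 min hold 3 libraries of low own-class score (box 2, shock 4 and shock 5). Without these libraries edgeR again called 0 members in the contrasts of that set. The Sst box against home cage contrast at 60 min had 0 members at an unadjusted p under 0.05, beside 79 of 16301 genes (0% called). In the contrasts of this paragraph for which no DESeq2 count is given, DESeq2 called 0. In the 6 lysate contrasts, fitted over the 3 lines with line as a term, edgeR and DESeq2 called 0 members (at most 0.128% of all genes by edgeR), and at most 2 had an unadjusted p under 0.05. The medians lay between -0.02 and 0.03. With any 1 line left out, edgeR again called 0.

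The shock response was also compared between the time sets of each line. In the Camk2a line 9 members were called, all lower at 60 min than at 15 min (4.63% of 14979 genes lower), with a median of -0.15. Mrpl2 differed by -1.47 ± 0.29 (adjusted p = 0.0182), Mrpl4 by -1.67 ± 0.37 and Mrpl54 by -1.82 ± 0.44. DESeq2 called 16, and 0 were called with GC and length offsets. In the Pvalb line 0 were called (0% of all genes), with 21 at an unadjusted p under 0.05 beside 1531 of 16642 genes. There 67 of 77 estimates lay above 0 with a median of 0.28, and DESeq2 called 1. In the Sst line edgeR and DESeq2 called 0 (0% of all genes by edgeR), with a median of -0.36. An unadjusted p under 0.05 was found for 6 members and for 2653 of 17138 genes. This Sst contrast rests on shock libraries of low own-class score in both sets and could not be fitted without them. Each time set is its own table, so time and table cannot be told apart.

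Between lines, home cage levels in purified RNA differed most in the 60 min set, but line and table cannot be told apart here either. Against Camk2a, 16 members were higher and 33 lower in Pvalb at 60 min (27.1% and 24.7% of 17325 genes), and 4 and 10 at 15 min (9.09% and 6.12%). In Sst 0 were higher and 37 lower at 60 min (13.4% and 11%), and 4 and 3 at 15 min (6.06% and 3.43%). Sst against Pvalb gave 13 and 31 at 60 min (24.2% and 20%) and 0 at 15 min (0.0548% in either direction). At 15 min 2 members and 1710 of 16427 genes had an unadjusted p under 0.05, and DESeq2 called 0 members. In the home cage lysates 21 members were higher and 25 lower in Pvalb than in Camk2a at 15 min (19.6% and 16.9% of all genes), and 15 and 29 in Sst than in Camk2a (19.4% and 15.9%), so these tables differed at 15 min in RNA that had not been purified as well. At 60 min 0 members were called in the lysates of Pvalb against Camk2a (0% higher and 0.0115% lower of all genes; 2 at an unadjusted p under 0.05) and of Sst against Camk2a (0.0631% and 0.189%; 19 at an unadjusted p under 0.05), and 6 higher and 5 lower of Sst against Pvalb (7.47% and 3.06%). Of all 17445 genes tested in the lysates at 60 min, 835 (Pvalb against Camk2a) and 3579 (Sst against Camk2a) had an unadjusted p under 0.05. DESeq2 was not run on the lysate line contrasts.

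The line differences at 60 min followed exon GC content in the contrasts with Pvalb. Spearman correlations over the 77 members were -0.62 for Pvalb against Camk2a and 0.66 for Sst against Pvalb. For Sst against Camk2a the correlation was -0.16, and the members of higher and of lower GC content both had a median of -0.48. With GC and length offsets Pvalb against Camk2a had 2 members higher and 58 lower, of which 2 and 32 were among those called without offsets. Sst against Camk2a had 0 higher and 75 lower, and Sst against Pvalb 4 higher and 32 lower. The offsets thus took 14 of the 16 higher calls of Pvalb against Camk2a. For these counts too, the share of all genes called with the offsets was not computed.

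The counts at 15 min rested on single home cage libraries. Pvalb against Camk2a fell from 14 to 5 to 9 without any 1 of the 3 Camk2a libraries or Pvalb replicates 1, 3 or 4. Sst against Camk2a went from 7 to 2 or 3 without any 1 Camk2a library, to 2 without Sst replicate 4 and to 11 without Sst replicate 2. At 60 min Sst against Camk2a fell from 37 to 18 without Camk2a replicates 1 or 2 and to 22 without Sst replicate 2.

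Called in both time sets between Pvalb and Camk2a were 10 members. Of these 5 went the same way, all lower in Pvalb (Mrpl11, Mrpl27, Mrpl33, Mrpl53 and Mrps33), and 5 went opposite ways (Mrpl28, Mrpl3, Mrpl4, Mrpl54 and Mrps11). Mrps11, for example, differed by 2.0 ± 0.43 at 15 min and -0.59 ± 0.21 at 60 min, and its home cage level in purified Camk2a RNA was 17.5 to 22.7 CPM in the 15 min table and 66.2 to 85.9 in the 60 min table. Between Sst and Camk2a 1 member, Mrpl33, was called in both sets, and between Sst and Pvalb 0.

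Mrpl33 (chr5:31596935-31664384), a large-subunit protein of the bacterial L33 type, was lower than in Camk2a in both interneuron lines and both sets. In home cage purified RNA it held 143, 155 and 166 CPM in Camk2a at 15 min, 44.3, 53.7, 57.7 and 61.4 in Pvalb and 53.6, 54.3, 57.7 and 75.9 in Sst. The Camk2a libraries lay above all others. At 60 min it held 73.9, 79.4, 114 and 127 CPM in Camk2a, 52.7 to 74.99 in 6 Pvalb libraries (with a slight overlap) and 39.4 to 59.6 in 5 Sst libraries. Its difference from Camk2a was -1.61 ± 0.26 and -0.72 ± 0.20 in Pvalb and -1.34 ± 0.25 and -1.38 ± 0.21 in Sst (adjusted p = 6.46e-05, 0.00286, 9.19e-04 and 6.62e-06). In the lysates the same differences were -0.42 ± 0.26 and 0.03 ± 0.21 in Pvalb and -0.75 ± 0.24 and -0.33 ± 0.22 in Sst. As purified minus lysate, 0 members were called lower in Sst than in Camk2a at 15 min, so the Mrpl33 call there was lost.

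Expressed as a difference of enrichments (purified minus lysate), the Pvalb and Camk2a contrast at 60 min had 16 members higher and 23 lower with a median of 0.01, where the purified RNA alone gave -0.25, and that of Sst against Camk2a 5 called in place of 37. Without the Sst home cage library of low own-class score, 19 were called in the latter. Mrps2 (1.26 ± 0.20) and Mrps6 (1.25 ± 0.21) were among the members higher in purified Pvalb RNA at 60 min, and Mrpl11 (-1.39 ± 0.19) and Mrps26 (-1.66 ± 0.20) among those lower, but at 15 min Mrps26 stood at 0.40 ± 0.32 and Mrps2 at 0.64 ± 0.31, neither of which passed. With GC and length offsets Mrps2 (0.67 ± 0.25, adjusted p = 0.0249) and Mrps6 (0.77 ± 0.22, adjusted p = 0.00408) were the 2 members still higher at 60 min, and Mrpl11 (-2.11 ± 0.21) and Mrps26 (-2.26 ± 0.21) were again lower.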

How the data were processed

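Gene counts of polyA RNA from purified and lysate libraries were used as deposited: whole-number read counts per gene, not normalized, in 6 tables, 1 for each line and time set. The submitters' processing notes name STAR 2.7.7a, featureCounts, DESeq2 and GRCm38, with no settings. Of 153 labelled samples, 151 count columns were used. Of these, 3 Pvalb home cage columns name a group but no sample of their own (2 of them carry the same name), and 2 labelled samples were not analysed here. Counts per column ran from 9043042 to 397228206.

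Each contrast was fitted on its whole table with edgeR 4.0.16 (R 4.3.3): filterByExpr, TMM scaling, glmQLFit with robust estimation and glmQLFTest, with Benjamini-Hochberg adjustment over all genes tested and a threshold of 0.05. The SE of a log2 fold change is its size divided by the square root of F. CPM values use the total count of the library, so they can differ from fitted changes. All members passed the filter in each contrast, except Mrpl57 where it was not listed. Between 7 and 36 residual degrees of freedom were left. The smallest reduced chi-square of 257 replicate pairs was 20.1, so no library looked deposited in duplicate.

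Alternatives were DESeq2 1.42.0, its size factors in edgeR, no filter on low counts, per-library offsets for exon GC content and length (natural splines, 4 degrees of freedom), a replicate block, the own-class score as a covariate, other forms of the line and fraction contrasts, and leaving out each library. Leaving out purified libraries of low own-class score was chosen after seeing the data. For these alternatives the share of all genes called was not computed, so their counts of members have no such share beside them. The fits were tested on simulated counts with known changes in 3 contrasts. Of 2-fold changes, 68.2% were recovered in Camk2a purified against lysate at 15 min. In shock against home cage at 60 min it was 40.9% in Pvalb and 0% in Sst. Of 1.5-fold changes, 25.8%, 0% and 0% were recovered in the same order. The simulation changed 66 to 68 genes at each fold size (1.3, 1.5 and 2) and left all others equal. In the data more genes were called, 3179 higher and 2476 lower in Pvalb and 382 and 350 in Sst. The adjustment for many genes was therefore stricter in the simulation, and these percentages do not measure the power of the contrasts. A count of 0 called members in a condition contrast does not show that no member changed.

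Named members are, in each comparison, those past the threshold with the smallest p (up to 8 a direction), plus Mrpl12, Mrps12, the Mrps18 genes, Mrps36, Mrpl3 and the 3 highest and 3 lowest per length. The members and lists were chosen with earlier results of these data known. Other genes named in the text were chosen after their values were seen.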

Additional observations from a re-analysis of the deposited data

Results flagged for a closer look

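The summed level of the mitochondrial ribosomal protein genes was high in 1 library of 1 group. In Camk2a lysate from shocked mice of the 15 min set, replicate 2 held 4663 CPM, while the next of the 4 libraries held 4032 and the lowest 3995. Among 27 groups of 4 to 10 libraries examined this was the only one with such a gap. Chance gives such a gap in about 1 in 20 groups, so 1 among 27 groups is not unusual.

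The shock response of purified Pvalb RNA at 60 min differed from that of the lysate for 29 of 77 members by the interaction test. It was called for 8 members with GC and length offsets and for 0 with the replicate block that pairs the fractions. The shock response of purified Camk2a RNA differed between the 60 min and the 15 min set for 9 of 76 members, all lower at 60 min, and for 0 with GC and length offsets.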

How the results depend on the processing

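Counts of called members and medians were recomputed under each alternative, where 536 stayed near the main value, 57 moved and 1 reversed. A count joined both directions, so its direction was not checked. Pvalb against Camk2a at 60 min stayed, although 16 higher and 33 lower became 2 and 58 with GC and length offsets. A median was called reversed only where members had been called and its main value exceeded the SD of the members' mean level over libraries. Other sign changes count as moved or kept. The cause of each shift was not tested. The titles give purified and lysate libraries the same numbers, without saying that they share a mouse. Same-numbered fractions correlated weakly, with medians of 0.02 to 0.11 over the 6 tables against -0.06 to -0.01 for other numbers, but 32 of 72 such pairs exceeded 0.1. Between conditions of purified RNA 13 of 64 pairs did. The replicate block pairs the fractions in the interaction, and 0 members were then called in the Pvalb interaction at 60 min. In the condition contrasts of purified RNA the block instead joins libraries of the same number across conditions. There 0 were called in Sst and 0 in Camk2a shock against home cage at 60 min. The Camk2a contrast also had 0 with DESeq2's size factors, without the filter, with the own-class score and with GC offsets.

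With GC and length offsets Mrps5 turned to 0.26, 0.55, 0.01 and 0.09 in the enrichment of Camk2a at 15 and 60 min, Pvalb at 60 min and Sst at 15 min, and Mrpl50 to 0.13 in Sst at 60 min. The enrichment medians became 1.39 and 1.5 in Camk2a, 0.93 in Pvalb at 15 min and 1.19 in Sst at 15 min. Interaction medians became 0.28 in Camk2a and -0.07 in Pvalb at 15 min, with 8 calls in Pvalb and 9 in Sst at 60 min. Camk2a medians at 15 min became 0.18 for shock and 0.02 for box against home cage, the Pvalb median of shock against box at 60 min 0.40, and Sst shock against home cage at 60 min gave 18 calls. Lines at 15 min gave medians of -0.42 (Pvalb against Camk2a) and -0.29 (Sst against Camk2a, 12 calls), and at 60 min -0.98 and -1.24 (75 calls). The Camk2a time difference gave 0 calls and a median of -0.39.

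DESeq2 called 13 in Camk2a shock against home cage at 60 min, 1 and 1 in Pvalb at 15 min for shock against home cage and box, 7 in Pvalb shock against box at 60 min, 4 in Sst shock against home cage and 1 in its interaction at 15 min, 30 and 6 for the same at 60 min, 11 for Sst against Camk2a at 15 min, and 16 and 1 for the Camk2a and Pvalb time differences. The own-class covariate gave interaction medians of -0.05 in Pvalb and -0.02 in Sst at 15 min, and 0 calls in Sst at 60 min against home cage (-0.29) and box (-0.42).

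As purified minus lysate, Pvalb against Camk2a gave 6 calls at 15 min and a median of 0.01 at 60 min, Sst against Camk2a 1 call at 15 min and 5 at 60 min (-0.20), and Sst against Pvalb a median of 0.33 at 15 min. Averaged over conditions, the counts were 42, 36 (-0.19) and 2 at 15 min for Pvalb and Sst against Camk2a and Sst against Pvalb, 62 for Sst against Camk2a at 60 min, with a median of -0.44 for Sst against Pvalb and 0.27 for Mrps11 in Pvalb against Camk2a. Without libraries of low own-class score Sst against Camk2a at 60 min gave 19 calls (-0.32).

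Leaving out 1 library gave 5 to 13 calls for Pvalb and 2 to 11 for Sst against Camk2a at 15 min, 18 to 43 for Sst against Camk2a at 60 min, 0 to 26 for Pvalb and 5 to 31 for Sst shock against box at 60 min, and for shock against home cage 0 to 9 in Camk2a at 60 min, 0 to 1 in Sst at 15 min and 1 to 13 at 60 min. Line medians at 60 min ran from -0.34 to -0.12, -0.56 to -0.32 and -0.32 to -0.04.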

Other observations

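Genes that transcribe the mitochondrial genome behaved differently from one another in purified RNA against lysate. Polrmt, the mitochondrial RNA polymerase, was lower in 5 sets (-0.86 to -0.57) and higher in the Sst set at 60 min (0.87). Tfam, which packages mitochondrial DNA, was higher in 5 sets (0.49 to 0.92) and lower in that set (-0.86). Slirp, a partner of Lrpprc in holding mitochondrial messages, was higher in the same 5 sets (0.94 to 2.05) and lower in the Sst set at 60 min (-0.73), where exon GC content ordered the changes over all genes.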
